A study of Arabidopsis thaliana with 4 samples.

Results

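QQS (QUA-QUINE STARCH, AT3G30720) and 9 genes of starch synthesis and breakdown were followed in Arabidopsis thaliana seedlings, as 10 of the 27416 gene models in the deposited values. QQS was chosen by its large ratio between the phyB mutant and the wild type in these same columns. The starch genes were taken from the known pathway, as genes of synthesis (PGM1, APS1, APL1 and GBSS1) and of breakdown and export (SEX1, SEX4, BAM3, DPE2 and MEX1), with earlier results of these data in view. The ratio of each gene is therefore given as a description and not as a test.

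The seedlings were mutant in PHYB, the gene of the red-light receptor phytochrome B (phyB), or wild type (WT), both labelled as the Col-0 ecotype. The labels name no phyB allele. Seeds of both genotypes were kept in the cold for 4 days on medium with 1% sucrose, then placed in white light for 12 h and in red light for 4 days. Total growth was 4.5 days and the red light was 60 μmol per m2 per s. The comparison asks which transcripts depend on phytochrome B in red light. The labels list 2 samples per genotype, but each genotype has 1 column of reads and 1 column of RPKM (reads scaled to the coding length in kilobases and to the total reads of the column), so each value stands alone, with no replicate check and no test.

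Starch is made in the chloroplast during the day and broken down at night. Phosphoglucomutase supplies glucose phosphate, ADP-glucose pyrophosphorylase turns it into the activated sugar, and starch synthases and branching enzymes build the granule. At night dikinases and phosphatases open the granule surface, beta-amylases release maltose, and maltose leaves the plastid and is metabolized in the cytosol. QQS is an orphan gene, with no recognisable relative outside its species; it encodes a small protein that binds the transcription factor subunit NF-YC4, and leaves with reduced QQS RNA hold more starch.

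QQS lies on chromosome 3 (chr3:12349047-12349933, plus strand, in the RefSeq annotation of TAIR10.1), and none of its span overlaps another annotated gene. Its coding sequence is 180 nt long in 2 exon segments, chr3:12349461-12349478 and chr3:12349565-12349726, and encodes 59 residues. The sequence is shown because its length is the one to which the RPKM of QQS was scaled, with the start and stop codons in capitals. Whether reads were counted in this stretch alone is not given.
QQS coding sequence: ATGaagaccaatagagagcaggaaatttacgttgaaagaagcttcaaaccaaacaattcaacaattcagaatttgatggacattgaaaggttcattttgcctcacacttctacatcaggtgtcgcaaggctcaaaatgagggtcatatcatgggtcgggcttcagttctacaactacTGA
A BLAST search of this sequence against all annotated coding sequences of the reference (E-value up to 1e-05) returned 0 other loci.

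The 250 bases before the annotated start of QQS (chr3:12348797-12349046, plus strand) are shown because QQS carried by far the largest difference of the 10 genes. The capitals mark the pair of 40-base windows that are most alike within this stretch, 31 of 40 bases equal, which begin 213 and 119 bases before the gene start.
QQS upstream: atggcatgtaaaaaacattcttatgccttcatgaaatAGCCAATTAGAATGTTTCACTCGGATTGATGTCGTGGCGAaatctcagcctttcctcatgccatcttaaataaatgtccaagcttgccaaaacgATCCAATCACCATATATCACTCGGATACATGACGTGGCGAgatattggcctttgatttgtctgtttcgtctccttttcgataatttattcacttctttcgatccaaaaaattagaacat
Of the 27443 upstream stretches of this length at nuclear protein-coding genes, 1.49% held a pair of windows at least as alike. This search was made after the sequence had been seen. Among the 10 genes none had the G-box (CACGTG), which 6.49% of all upstream stretches hold on either strand. The evening element (AAAATATCT) was found at PGM1 alone, against 2.36% of all stretches, and the CCA1-binding site (AAAAATCT) at DPE2 alone, against 6.69%. The evening element and the CCA1-binding site do not contain one another.

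The phyB column held 33201394 reads and the WT column 33521717 reads, of which the 10 genes took 14258 and 13740 reads. PHYB itself (AT2G18790) was at 14.1 RPKM in phyB and 36.3 RPKM in WT. Green tissue was represented in both columns, where the 3 shoot markers differed in direction. RBCS1A was at 12679 RPKM in phyB and 11296 RPKM in WT (log2 ratio 0.17), LHCB2.1 at 2123 and 2675 RPKM (-0.33), and CA1 at 1344 and 1347 RPKM (0.00). At 90% identity over 80% of the length, RBCS1A matched 3 other loci and LHCB2.1 matched 1. Reads of these markers could have been divided among such copies. The 3 root markers summed to 61.1 RPKM in phyB and 60.9 RPKM in WT, most of it from the phosphate transporter gene PHT1;1, which has near-identical copies (51.7 and 52.3 RPKM). The other root markers stood at 0.30 (EXPA7) and -0.25 (COBL9), with intervals that included equality. Both seed storage markers summed to 15.86 RPKM in phyB and 15.96 RPKM in WT, with CRU3 higher (0.27, interval 0.07 to 0.48) and CRU1 lower in phyB (-0.26, interval -0.47 to -0.06). The part of these tissues in the values below was not tested. In whole seedlings, fewer cells of a type and less RNA per cell cannot be told apart. WT titles, but not phyB titles, mention a repeated analysis, and any batch behind this cannot be told apart from the genotype.

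QQS was high in phyB and low in WT, and its difference was far larger than that of any of the 9 starch genes. QQS had 299 reads and 50.03 RPKM in phyB, against 13 reads and 2.15 RPKM in WT. Its log2 ratio, phyB over WT, was 4.54, which is 23.2-fold, with a 95% counting interval from 3.74 to 5.46 on the log2 scale, and ranked 5 among 19296 gene models. Such an interval is calculated from both read counts and totals and covers counting error only, since copies made by PCR are not separate molecules and spread between seedlings is not in it. One read on QQS was worth 0.167 RPKM in phyB and 0.166 RPKM in WT, so the low WT level rests on few reads and sets most of the width of the interval.

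**Figure D1:**
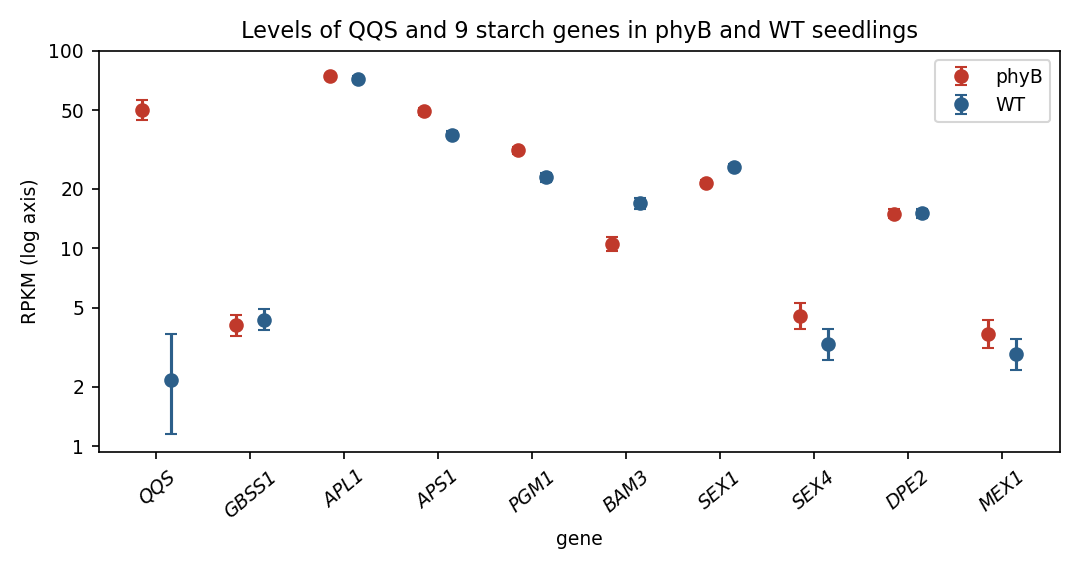
RPKM on a log axis of QQS and 9 starch genes in the phyB column (red, left of each pair) and the WT column (blue, right); points are single deposited values and bars are exact 95% counting intervals. QQS stands at 50.03 RPKM in phyB and 2.15 RPKM in WT, whereas none of the other 9 genes differs by more than the 1.61-fold of BAM3.

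Of the 10 genes, all of which had a mean of at least 1 RPKM over both columns, QQS alone was at least 1.5-fold higher in phyB, and BAM3 alone at least 1.5-fold lower. Of all 19296 gene models with that mean, 9.75% reached 1.5-fold in the higher direction, against 7.27% in the lower one. At 2-fold the counts were 1 higher and 0 lower, against 3.20% and 2.18% of all models. The interval lay wholly past 1.5-fold for QQS, against 4.60% of all models in the higher direction, and for no gene in the lower direction, against 3.26%. The contrast that chose QQS is the one counted here, so nothing is read from these shares about QQS.

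The counting interval excluded equality for 6 of the 10 genes, with QQS, PGM1, APS1 and SEX4 higher and BAM3 and SEX1 lower in phyB. The same was seen for 29.8% of all models on the higher side and for 32.0% on the lower side, so at this depth an interval that excludes equality is common. Without QQS the log2 ratios of the other 9 genes ran from -0.69 to 0.47 with a median of 0.04, against a median of -0.01 and quartiles at -0.25 and 0.26 over all models. Their summed level was 214.4 RPKM in phyB and 200.9 RPKM in WT.

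The order of levels per kilobase showed QQS in different places in the columns. In phyB, QQS came second behind APL1 (74.3 RPKM), and its interval from 44.5 to 56.0 RPKM overlapped that of APS1, the next in order. In WT, QQS was last of the 10, and its interval from 1.15 to 3.68 RPKM overlapped that of MEX1, the next above. SEX4, GBSS1 and MEX1 were the lowest of the starch genes in both columns, and the intervals of neighbours among them overlapped. All other neighbours in either order were separated beyond counting error. QQS was at 12.2 times the level of GBSS1 in phyB and at 0.494 times in WT.

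Short coding sequences had higher ratios in these columns, and QQS is short. Among the 302 models under 200 nt, 24.8% were at least 2-fold higher in phyB. The median log2 ratio of this class was 0.48, and QQS had the highest ratio of them. Among models of 900 to 1800 nt, the class of 5 of the starch genes, 1.55% were at least 2-fold higher, with a median of -0.03. The trend at the length of QQS was 0.45. With this trend removed the log2 ratio of QQS was 4.09, which is 17.0-fold.

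**Figure D2:**
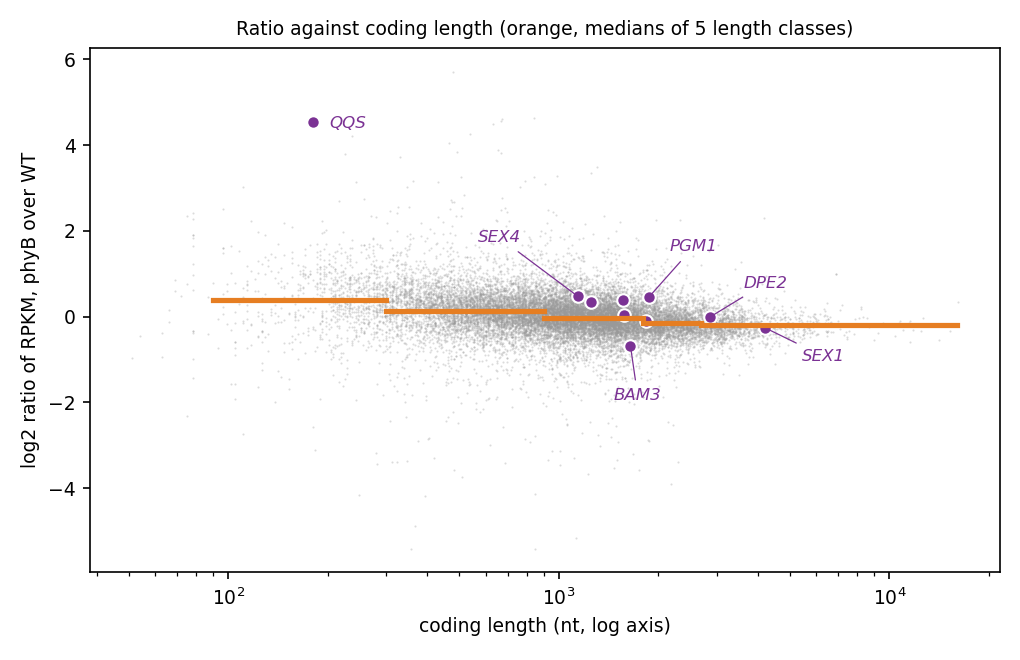
Log2 ratio of RPKM, phyB over WT, against coding length on a log axis; grey points are all 19296 gene models with a mean of at least 1 RPKM, purple points are QQS and the 9 starch genes (6 of them labelled), and orange lines are medians of 5 length classes. QQS at 4.54 stands far above the median of 0.39 of models under 300 nt, and the starch genes lie within the cloud.

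The measured gene models beside QQS on chromosome 3 had few reads in both genotypes. GDU6, a glutamine dumper family gene 2538 nt downstream, had 2 reads in each column, and AT3G30730 had 4 in phyB and 2 in WT. Upstream, AT3G30705 and AT3G30540 had 0 reads in both columns and AT3G30580 had 11 reads in phyB and 13 in WT. AT3G30770, an aspartyl protease family gene 95.6 kb downstream, had 21 reads in phyB and 2 in WT, a log2 ratio of 3.41 with an interval from 1.37 to 6.54. The high phyB count of QQS thus had no counterpart in its nearest measured neighbours, while AT3G30770 was higher in phyB at a level under 0.5 RPKM.

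**Figure D3:**
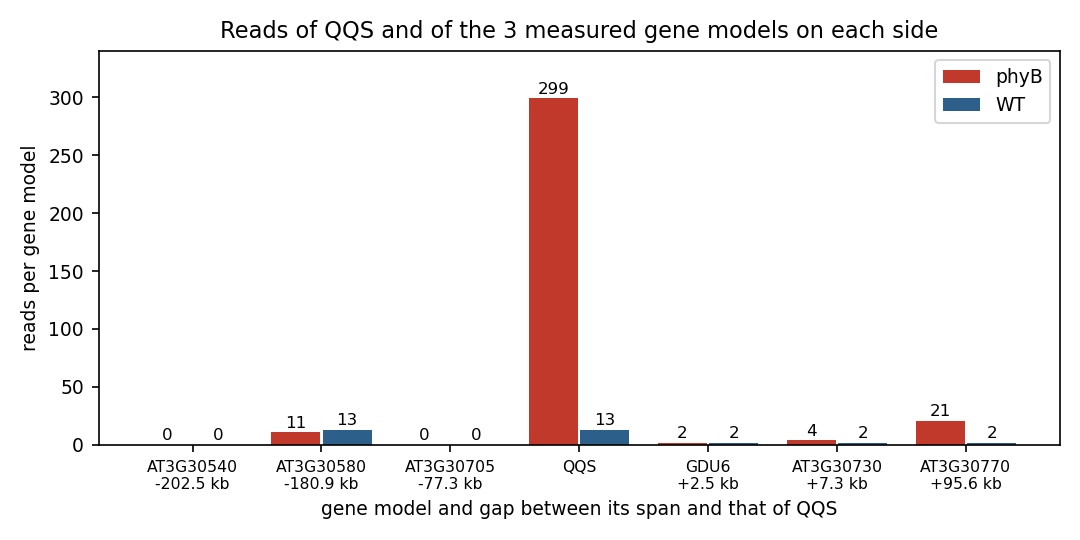
Reads per gene model, in the phyB column (red, left) and the WT column (blue, right), for QQS and the 3 measured gene models nearest on each side, labelled with the gap in kb to QQS. QQS had 299 reads in phyB and 13 in WT, and no neighbour passed 21 reads.

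The nuclear gene models whose pair of levels lay nearest to that of QQS were AT5G62210, AT5G57760 and AT5G19890, among 19132 compared. The measure was the distance in log2 RPKM over both columns, and was 0.21, 0.66 and 0.98 for these. AT5G62210, an embryo-specific protein 3 family gene, was at 46.4 RPKM in phyB and 1.91 RPKM in WT. AT5G57760 was at 60.2 RPKM in phyB and 3.27 RPKM in WT and overlaps AT5G57770 on the opposite strand. AT5G19890, a peroxidase family gene, was at 39.0 RPKM in phyB and 4.05 RPKM in WT. With a single value per genotype such likeness rests on a pair of numbers.

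NF-YC4 (AT5G63470), the transcription factor subunit that QQS binds, did not show a difference of that size. It had 58.0 RPKM in phyB and 49.7 RPKM in WT, a log2 ratio of 0.22 with an interval from 0.11 to 0.33. It overlaps a gene on the opposite strand.

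Among the synthesis genes, PGM1 (AT5G51820, listed as PGM in RefSeq; chr5:21063298-21068327, minus strand), the plastid phosphoglucomutase, was higher in phyB. It had 1946 reads and 31.3 RPKM in phyB, against 1435 reads and 22.9 RPKM in WT, a log2 ratio of 0.45 (interval 0.35 to 0.55). The cytosolic isoforms differed less, with PGM2 at 35.6 RPKM in phyB and 40.5 RPKM in WT (-0.19) and PGM3 at 60.8 and 55.7 RPKM (0.12). PGM1 thus made up 24.5% of the summed RPKM of the 3 phosphoglucomutase genes in phyB and 19.2% in WT.

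ADP-glucose pyrophosphorylase, the regulated step of starch synthesis, consists of small and large subunits, and its main subunit genes differed in their ratios. The small-subunit gene APS1 (AT5G48300, listed as ADG1; chr5:19570238-19572804, plus strand) had 2567 reads and 49.5 RPKM in phyB, against 1975 reads and 37.7 RPKM in WT. Its log2 ratio was 0.39 (interval 0.31 to 0.48). The large-subunit gene APL1 (AT5G19220; chr5:6463824-6466831, minus strand) had 3869 reads and 74.3 RPKM in phyB, against 3787 reads and 72.0 RPKM in WT. Its log2 ratio of 0.04 had an interval from -0.02 to 0.11 that included equality. The quotient of APL1 to APS1 was therefore 1.501 in phyB and 1.91 in WT, on the RPKM scale.

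APL1 and APS1 were the dominant genes of their families in both genotypes. APL1 held 88.7% of the RPKM of the 4 large-subunit genes in phyB and 88.9% in WT. The minor large subunits were APL3 at 4.12 RPKM in phyB and 3.09 RPKM in WT (0.42), APL2 at 3.87 and 3.66 RPKM (0.08), and APL4 at 1.51 and 2.20 RPKM (-0.54). APS2, the other small-subunit gene, had 25 reads in phyB and 39 in WT, with an interval from -1.41 to 0.13. A lncRNA annotated on the opposite strand, AT5G19221, covers 1216 nt of the APL1 coding sequence, and no source used here says whether strand was used in the counting, so its reads and those of APL1 cannot be told apart.

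GBSS1 (AT1G32900; chr1:11920390-11923866, minus strand), the granule-bound synthase that makes amylose, showed no difference beyond counting error. It had 249 reads and 4.09 RPKM in phyB, against 268 reads and 4.36 RPKM in WT, a log2 ratio of -0.09 (interval -0.35 to 0.16). It was the lowest of the 5 starch synthase genes, with 5.56% of their summed RPKM in phyB and 5.65% in WT. SS1, the highest, was at 33.2 RPKM in phyB and 34.6 RPKM in WT (-0.06), and SS2 at 10.04 and 12.83 RPKM had the lowest ratio (-0.35, interval -0.49 to -0.22). SS3 stood at -0.06 and SS4 at 0.12. With the length trend removed SS1 stood at 0.07, SS2 at -0.19, SS3 at 0.14 and SS4 at 0.32.

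Over the synthesis list, 18 of 19 entries had a mean of at least 1 RPKM. Their median log2 ratio was 0.05, or 0.15 with the length trend removed. BE1 alone was past 1.5-fold in the higher direction and 0 were in the lower direction, against 9.75% and 7.27% of all models, so these counts lie near or under the shares over all models. BE1 (AT3G20440), annotated as a branching enzyme, was at 1.63 RPKM in phyB and 0.707 RPKM in WT, a log2 ratio of 1.20 (interval 0.77 to 1.65). This rests on 146 reads in phyB and 64 in WT, and the gene overlaps another on the opposite strand. BE3, a branching enzyme gene with more reads, was at 12.7 RPKM in phyB and 13.1 RPKM in WT (-0.04). PTST1 and BE2 were not counted because the reference does not carry these symbols. PTST1 (AT5G39790) was at 5.75 RPKM in phyB and 3.27 RPKM in WT (0.82, interval 0.43 to 1.21). BE2 (AT5G03650) was at 25.4 RPKM in phyB and 29.7 RPKM in WT (-0.23). The isoamylase genes ISA1 (0.00) and ISA2 (0.16) also lay inside 1.5-fold. The summed RPKM of the 19 genes was 428.5 in phyB and 405.5 in WT.

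Among the breakdown genes, BAM3 (AT4G17090, listed as CT-BMY; chr4:9604962-9607402, minus strand) had the lowest ratio. BAM3 is a plastid beta-amylase that releases maltose in leaves at night. It had 575 reads and 10.5 RPKM in phyB, against 936 reads and 17.0 RPKM in WT, a log2 ratio of -0.69, that is 1.61-fold lower in phyB. Its interval from -0.84 to -0.54 reached inside 1.5-fold. A lncRNA on the opposite strand, AT4G06665, covers 448 nt of its coding sequence, and the neighbour AT4G17085, which overlaps the end of the gene by 13 nt outside the coding sequence, was higher at 19.6 RPKM in phyB and 10.3 RPKM in WT.

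Of the other 8 genes named as beta-amylases, BAM1, BAM4, BAM7 and BAM9 were lower in phyB beyond counting error by smaller amounts, as were 32.0% of all models. The 9 genes were grouped by name alone. Whether each product releases maltose from starch was not examined, so their sum is not a measure of that step. BAM1, the highest of the 9, was at 72.1 RPKM in phyB and 84.0 RPKM in WT (-0.22), and BAM9 at 45.6 and 54.7 RPKM (-0.26). BAM4 (-0.28) and BAM7 (-0.25) were also below 0, and the interval of BAM8 (-0.15) included equality. With the length trend removed BAM1 stood at -0.13, BAM4 at -0.21, BAM7 at -0.11, BAM8 at -0.011 and BAM9 at -0.19. For BAM1 this lay outside its counting interval from -0.28 to -0.16. BAM2, with 595 reads in phyB and 491 in WT, was above 0 (0.29, interval 0.12 to 0.47). BAM5 and BAM6 had at most 4 reads in either column. BAM3 held 6.14% of the summed RPKM of the family in phyB and 8.38% in WT, and the sum was 171 RPKM in phyB and 202 RPKM in WT, a log2 ratio of -0.24.

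The granule-phosphorylating dikinase SEX1 (AT1G10760; chr1:3580830-3590928, minus strand) was slightly lower in phyB as deposited. It had 3001 reads and 21.5 RPKM in phyB, against 3629 reads and 25.8 RPKM in WT, a log2 ratio of -0.26 (interval -0.33 to -0.19). SEX1 has the longest coding sequence of the 10 genes, 4200 nt, and with the length trend removed its ratio was -0.047. PWD, the dikinase that acts after SEX1, was at 16.4 RPKM in phyB and 16.1 RPKM in WT (0.02). GWD2 was at 1.02 RPKM in phyB and 0.560 RPKM in WT, on 130 and 72 reads.

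SEX4 (AT3G52180; chr3:19349600-19353728, minus strand), the phosphatase that removes the phosphate set by these dikinases, was higher in phyB. It had 172 reads and 4.54 RPKM in phyB, against 125 reads and 3.27 RPKM in WT, a log2 ratio of 0.47 with a wide interval from 0.13 to 0.82. LSF2, a related phosphatase gene, was at 7.56 RPKM in phyB and 6.01 RPKM in WT (0.33), and LSF1 at 5.24 and 5.38 RPKM (-0.04). As deposited, the dikinase gene SEX1 and the phosphatase gene SEX4 had ratios of opposite sign, but SEX1 stood at -0.047 with the length trend removed. The related genes did not follow this contrast. The dikinase genes PWD (0.02) and GWD2 (0.87) and the phosphatase gene LSF2 were above 0, and LSF1 was just below 0.

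DPE2 (AT2G40840; chr2:17044932-17051062, plus strand), the cytosolic enzyme that metabolizes exported maltose, was nearly equal in both columns. It had 1427 reads and 14.99 RPKM in phyB, against 1450 reads and 15.08 RPKM in WT, a log2 ratio of -0.01 (interval -0.12 to 0.10). The plastid enzyme DPE1 was at 6.803 RPKM in phyB and 4.877 RPKM in WT (0.48, interval 0.26 to 0.71).

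The maltose exporter gene MEX1 (AT5G17520, listed as RCP1; chr5:5772568-5775417, minus strand) had a ratio whose interval included equality. It had 153 reads and 3.69 RPKM in phyB, against 122 reads and 2.92 RPKM in WT, a log2 ratio of 0.34 (interval -0.01 to 0.70). An adjacent gene annotated as a maltose excess-like protein, AT5G17523, matches 53.8% of the MEX1 coding sequence with 99.7% identity, so reads could have been divided between them. AT5G17523 had 42 reads in phyB and 38 in WT, and the summed reads of both genes gave a log2 ratio of 0.30. PGLCT, the plastid glucose exporter gene, was far more abundant at 101.7 RPKM in phyB and 95.1 RPKM in WT (0.10).

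**Figure D4:**
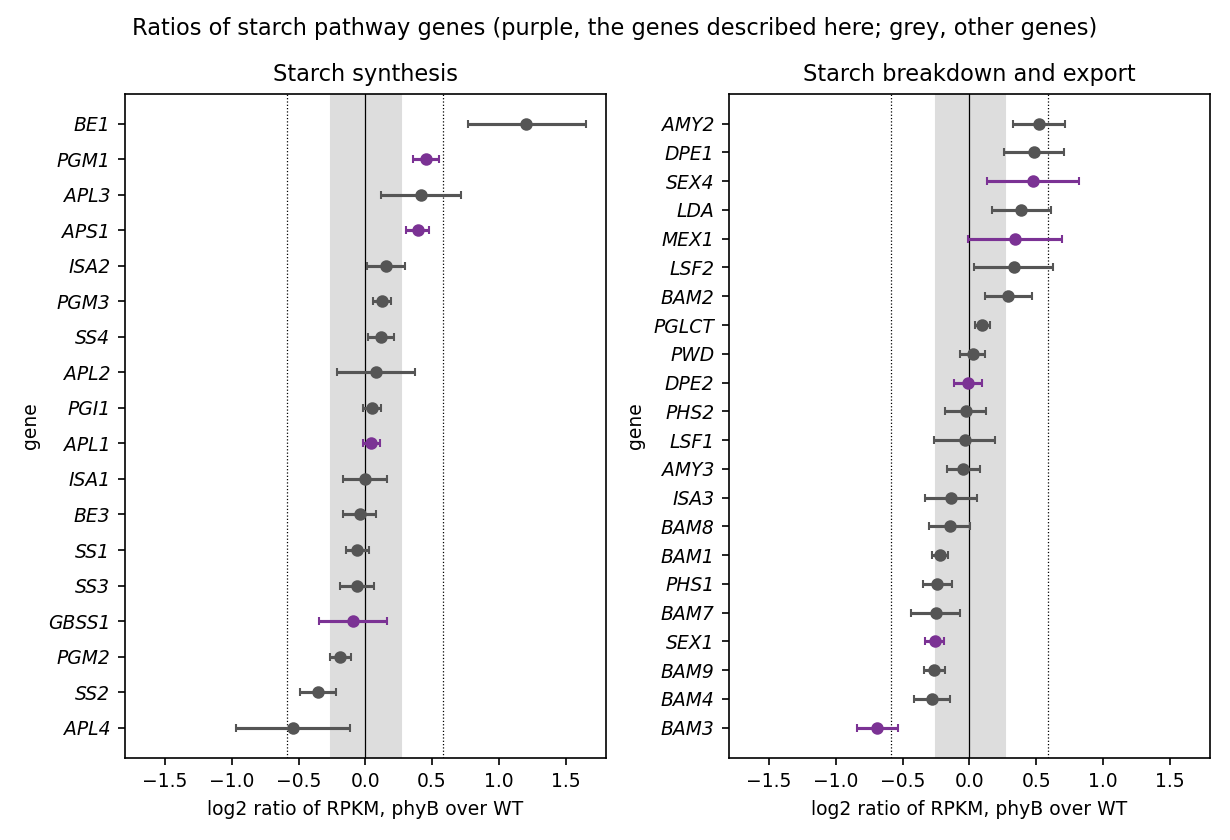
Log2 ratio of RPKM, phyB over WT, for the synthesis genes (left) and the breakdown and export genes (right) with a mean of at least 1 RPKM; points are single ratios and bars are 95% counting intervals, purple marks the 9 starch genes described one by one, the grey band spans the quartiles of all gene models, and dotted lines mark 1.5-fold. BE1 at 1.20 and BAM3 at -0.69 are the genes past 1.5-fold.

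Over the breakdown and export list, 22 of 26 entries had a mean of at least 1 RPKM, with a median log2 ratio of -0.03, or 0.14 with the length trend removed. BAM3 alone was past 1.5-fold in the lower direction and 0 were in the higher direction, against 7.27% and 9.75% of all models, so these counts too are near or under the shares over all models. The highest ratio among these 22 was that of the alpha-amylase gene AMY2 at 12.6 RPKM in phyB and 8.79 RPKM in WT (0.52). GWD2, left out of these counts by its mean of 0.790 RPKM, had a higher log2 ratio of 0.87 (interval 0.44 to 1.30). The debranching enzyme genes LDA (0.39) and ISA3 (-0.13) and the glucan phosphorylase genes PHS1 (-0.24) and PHS2 (-0.03) lay within 1.5-fold. The summed RPKM of the list was 410.8 in phyB and 432.2 in WT.

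Genes of carbon transport and sugar signalling around starch showed 1 ratio past 1.5-fold higher among 8 and 0 past 1.5-fold lower, against 9.75% and 7.27% of all models. GPT2, a glucose phosphate transporter of the plastid that is induced by sugar, was at 3.33 RPKM in phyB and 1.99 RPKM in WT, a log2 ratio of 0.74 (interval 0.32 to 1.16), or 0.53 and so under 1.5-fold with a pseudocount of 1. TPT, the triose phosphate exporter and the most abundant of the 8, was at 404.8 RPKM in phyB and 535.9 RPKM in WT (-0.40), or past 1.5-fold lower at -0.66 with quantile normalization. GPT1 (0.23), HXK1 (0.09), TPS1 (-0.28) and the SnRK1 kinase genes KIN10 (0.03) and KIN11 (-0.12) differed less. Of the other genes named from these lists, APS2, APL4, SS2, SS3, BE3, ISA1, BAM2, BAM4, BAM6, BAM9, PHS1, PGLCT, TPT, HXK1 and TPS1 have a gene across from them on the opposite strand. LSF1, PHS2 and KIN10 share sequence with a gene on the same strand. LSF1 overlaps CA1, an abundant carbonic anhydrase gene. Values of these genes can include reads of the other gene.

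Many starch genes follow the time of day, and the labels give no hour of harvest. The 9 clock genes examined, listed with earlier results of these data known, all had log2 ratios below 0. Their median was -0.63 as deposited, against -0.01 over all models, and -0.42 with the length trend removed. All 9 counting intervals lay wholly below equality, against 32.0% of all models. At least 1.5-fold lower in phyB were 5 of them, against 7.27% of all models. With upper-quartile factors 4 were. With the length trend removed 3 were, with LHY at -0.52 and GI at -0.42. The shares of all models under these alternatives were not calculated. As deposited, LHY, a morning gene, was at 26.7 RPKM in phyB and 41.7 RPKM in WT (-0.64), and PRR5 at 3.10 and 9.48 RPKM (-1.61). Their part in the values of QQS, BAM3 or the other starch genes was not tested.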

How the data were processed

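Oligo(dT)-selected RNA of seedlings was sequenced, per the labels' protocols. The authors' deposited reads are whole numbers apart from 0.5, which stands for 0 reads, and were handled as estimated counts with 0.5 returned to 0. The deposited RPKM values equal reads scaled to a coding length in kilobases and to the total reads of the column, with implied lengths whole within 0.001 nt. Each column was used as the authors' value. Not given in the sources used here are the samples behind a column, the aligner, the counter and the use of strand. The submitters' processing notes name TAIR10 as the build. Positions and sequences came from RefSeq TAIR10.1, where 96.8% of 26710 nuclear models and all 10 genes had a coding sequence of the implied length.

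The ratio was that of RPKM, phyB over WT, with exact conditional 95% intervals (Clopper-Pearson) on reads, by scipy 1.17.1. A column at 0 reads was set to 3 reads. The calculation was tested on simulated data with counting error only, which is what the intervals assume. That test says nothing about spread between samples or copies made by PCR. Copies were sought with BLAST 2.17.0 at 90% identity over 80% of the length, and none of the 10 genes had one. The 10 genes, the lists and the naming rule were chosen with earlier results of these data known. The rule names the 10 genes, listed genes past 1.5-fold with at least 5 RPKM in either genotype, isoforms of the same steps and the neighbours of QQS, and other genes were named after their values were seen. From the lists 6 entries were left out because the reference does not carry that symbol. Alternatives were edgeR 4.0.16 factors (TMM, RLE, upper quartile), quantile normalization, totals without organelle genes, pseudocounts of 1 and 0.1, and removal of a lowess trend on coding length (span 0.3, statsmodels 0.14.6).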

Additional observations from a re-analysis of the deposited data

How the results depend on the processing

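QQS stayed between 4.02 and 4.58 on the log2 scale over 8 alternatives, lowest with a pseudocount of 1, and BAM3 between -0.69 and -0.61. Removal of the coding-length trend moved APL1 to 0.12, PGM1 to 0.57, SEX1 to -0.047 and DPE2 to 0.18, beyond their counting intervals. It also moved the median of the breakdown and export list to 0.14 and that of the synthesis list to 0.15. By that alternative GBSS1 stood at 0.02, above 0. APL1 stood just below 0 with quantile normalization, and DPE2 above 0 with that and with upper-quartile factors. What the length trend comes from was not tested. With the interval wholly past 1.5-fold, 0 of the 10 genes were lower in phyB. On the log2(RPKM + 1) scale 0 synthesis genes were 2-fold higher, against 1 (BE1) without the pseudocount. The share of all models on that scale was not calculated. With the entries lacking that symbol kept, 22 synthesis genes had a mean of at least 1 RPKM. Of these, 2 were at least 1.5-fold higher, BE1 and PTST1, which is near the 9.75% of all models. That alternative was chosen after seeing the data. The share of all genes at least 2-fold higher was 7.05% with no filter. The share at least 2-fold lower was 4.83% with no filter and 1.32% above a mean of 5 RPKM. With no filter, models at 0 reads in a column are included (4100 models in phyB and 4164 in WT had 0 reads). Where the value set for 0 reads exceeds the reads of the other column, the direction of the ratio is reversed. The unfiltered shares can therefore hold calls in the wrong direction, and nothing is read from them. No paired analysis was possible because the single column per genotype carries no replicate number, and leaving out a replicate was not possible for the same reason. Depth limits QQS in WT (13 reads), APS2, BAM5 and BAM6.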
